A study of Mus musculus with 9 samples.

Results

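The matrix metalloproteinases, the related ADAM sheddases and their tissue inhibitors make up an extracellular protease system, and 10 of its genes were described across the 4 groups of a mouse glioma series. The 10 genes were given as a list of mouse symbols, chosen as proteases and inhibitors that remodel the matrix around gliomas, and were found by mapping the Ensembl identifiers of the count table to symbols. All 10 were present among the 53801 genes counted, and all 10 belonged to the 12538 protein-coding genes that passed the filter on low counts and were tested. They were the 5 matrix metalloproteinases Mmp2, Mmp12, Mmp13, Mmp14 and Mmp19, the 2 sheddases Adam17 and Adam8, and the 3 inhibitors Timp1, Timp2 and Timp3.

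Matrix metalloproteinases are zinc enzymes that are made as inactive precursors and cut collagens, elastin, laminins and other matrix proteins once their propeptide is removed. ADAM proteases are relatives anchored in the membrane that release the outer part of surface proteins, such as tumour necrosis factor, and tissue inhibitors of metalloproteinases (TIMPs) block the active site of both kinds of enzyme. In gliomas, microglia and macrophages are known to express the membrane-type enzyme Mmp14, which activates the Mmp2 precursor with the help of Timp2, and this activation has been tied to invasion.

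The cells were CD11b+ FACS sorted cells, a gate that takes microglia and other myeloid cells, from male adult C57BL/6J mice. Every group carried a tumour of GL261 luc+ tdT+ cells, a mouse glioma line that makes luciferase and the red fluorescent protein tdTomato, and no group was free of tumour. The groups were 2 CTR libraries from mice given saline, 2 OAT-1746 libraries from mice given an oral inhibitor of arginase 1 and 2, 2 anti-PD-1 libraries from mice given an antibody to the immune checkpoint receptor PD-1, and 3 COMB libraries from mice given both agents. The sources give different days of collection, the labels do not say whether each library came from its own animal although the methods speak of biological replicates, and the p-values below measure the spread between these samples. Anti-PD-1 replicate 2 carries anti-PD-2 as its treatment label and was grouped by its title.

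Poly-A RNA was sequenced and counted per gene. Total counts were 17490386 and 17729568 in CTR replicates 1 and 2, 17380045 and 16784406 with OAT-1746, 14356928 and 18796479 with anti-PD-1, and 13048075, 16144518 and 14806017 in COMB replicates 1 to 3. Levels are given as CPM, counts per 1000000 with library sizes scaled by the TMM method, and 1 count was worth between 0.0564 and 0.0742 CPM. The lowest count of any member was 8, for Timp1 in OAT-1746 replicate 2. Values in a group are listed in the order of the replicate numbers.

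The CD11b label was compared with marker genes. Itgam, which encodes CD11b, lay between 294 and 446 CPM in the 9 libraries. The 10 microglia markers summed to 13539 and 21600.1 CPM in CTR, 28362 and 35504 with OAT-1746, 20204 and 16396 with anti-PD-1, and 24675, 18475 and 17357 in COMB. The 10 markers of monocytes and macrophages, led by Plac8, summed to 3053 and 3572 CPM in CTR, 3387 and 623 with OAT-1746, 4009.5 and 4335 with anti-PD-1, and 2553, 2888 and 3094 in COMB. Myeloid markers of both kinds were thus present in every library. Summed levels ran from 542 to 935 CPM for border-associated macrophages and from 329 to 743 for neutrophils. They ran from 275 to 570.3 for dendritic cells and from 21.1 to 268 for NK cells. Most of the dendritic cell sum came from Siglech, which is also in the microglia list. Siglech stood at 191 CPM in CTR replicate 1, where that sum was lowest, and at 505 in OAT-1746 replicate 2, where it was highest. Outside the gate, sums ran from 8.35 to 16.0 CPM for T cells, 10.5 to 25.8 for B cells, 9.77 to 20.0 for glioma cells, 5.74 to 21.9 for neurons, 13.02 to 37.4 for fibroblasts and pericytes, and 0.845 to 29.0 for erythroid cells. Sums for astrocytes (117 to 249 CPM), oligodendrocytes (289 to 467) and endothelial cells (122 to 190.4) were higher than these but far below the microglia sum. In the erythroid list 1 of 5 markers was at 0 in every library, and no marker of the other lists present in the count table was.

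OAT-1746 replicate 2 stood apart. Across genes, which are not independent replicates, OAT-1746 replicate 2 correlated with the other libraries at r from 0.911 to 0.956. Its median absolute log2 difference from the CTR mean was 0.59, against 0.32 for OAT-1746 replicate 1. It also held the lowest monocyte and macrophage sum and the highest microglia sum of the 9 libraries. COMB replicates 2 and 3 correlated at 0.989, and COMB replicate 1, at most 0.983 with any library, lay within the range of the others in its correlations and had the fewest counts. It lay below the other COMB libraries for several members described below. The fits were run again without each of these libraries, and part of these values is given below.

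Levels of different genes were compared per kilobase of exon, as the mean CPM per kb over the 9 libraries. On this scale Timp2 stood highest among the members at 108 CPM per kb, followed by Mmp14 at 76.6. With the length of the longest transcript in place of all exons, the level of Mmp14 was 141 CPM per kb and that of Timp2 113, so that their order was reversed. Adam17 followed at 38.3 CPM per kb, Adam8 at 25.6, Mmp2 at 11.8 and Mmp13 at 10.01. The lowest levels per length were those of Timp1 at 7.75 CPM per kb, Mmp19 at 4.61, Mmp12 at 3.78 and Timp3 at 1.14. With the longest transcript as length, Mmp12 at 6.12 CPM per kb lay above Mmp19 at 4.79. Over the 9 libraries together, the inhibitor Timp2 and the protease Mmp14 ranked highest on either length scale. By group, Mmp14 stood at 110 CPM per kb in CTR, 34.6 with OAT-1746, 83.0 with anti-PD-1 and 78.0 in COMB. Timp2 stood at 94.9, 130, 109 and 101 CPM per kb in the same groups. Adam17 stood at 43.0, 38.7, 34.4 and 37.6, so that its mean lay above that of Mmp14 with OAT-1746. That order held in OAT-1746 replicate 2 (Adam17 39.0 CPM per kb, Mmp14 16.1) and not in replicate 1 (38.4 and 53.0). In COMB, Adam8 at 46.1 CPM per kb lay above Adam17, and Mmp13 at 18.4 and Timp1 at 10.8 lay above Mmp2 at 9.90. These orders held in COMB replicates 2 and 3 and not in replicate 1. In COMB replicate 1, Adam8 stood at 20.2 CPM per kb and Adam17 at 39.2, and Mmp2 at 14.8 lay above both Mmp13 and Timp1. By the longest transcript the OAT-1746 levels were 63.7 CPM per kb for Mmp14 and 62.0 for Adam17. On that scale the COMB levels were 60.1 CPM per kb for Adam17 and 58.3 for Adam8, so that their order was reversed. Mmp13 and Timp1 stayed above Mmp2 in COMB, and Mmp12 at 10.88 CPM per kb also lay just above Mmp2 at 10.84.

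**Figure D1:**
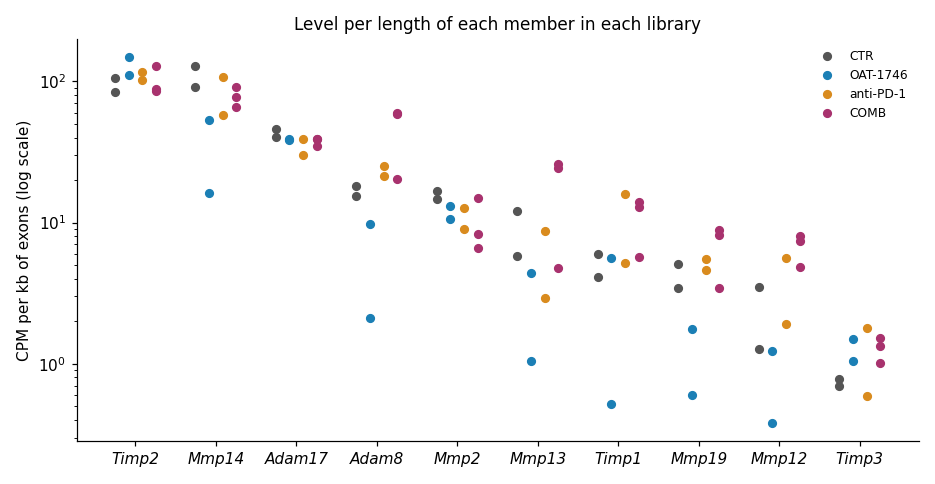
Level of each member in CPM per kb of exons (log axis) in each of the 9 libraries (points, coloured by group), with members ordered by their mean. Timp2 and Mmp14 lie at the top left and Timp3 at the bottom right.

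Mmp14 is the membrane-type protease that cuts collagen at the cell surface and activates the Mmp2 precursor (ENSMUSG00000000957, GRCm38 chr14:54431612-54445364, plus strand). Its level was 766 and 547 CPM in CTR, 316 and 96.2 with OAT-1746, 346 and 644 with anti-PD-1, and 390, 464 and 541 in COMB. Both OAT-1746 libraries lay below every other library, and replicate 2 lay far below replicate 1. The group means ranked CTR (656 ± 154 CPM, SD, n = 2), anti-PD-1 (495 ± 211, n = 2), COMB (465 ± 75.4, n = 3) and OAT-1746 (206 ± 155, n = 2), and of these neighbours only COMB and OAT-1746 did not overlap. OAT-1746 differed from CTR by a log2 fold change of -1.67 ± 0.50 (SE), a difference that missed the threshold of 0.05 in edgeR (Benjamini-Hochberg adjusted p 0.0779) and passed it in DESeq2 (adjusted p 0.00992). In bulk samples such as these, fewer cells of a type and less RNA per cell cannot be told apart. The log2 fold change was -1.04 without OAT-1746 replicate 2, and without OAT-1746 replicate 1 it was -2.78. The edgeR adjusted p was 0.297 and 0.00316 in these fits, the highest and the lowest over the 9 libraries left out in turn. COMB lay above OAT-1746 by a log2 of 1.17 ± 0.46 (SE). The adjusted p was 0.103 in edgeR, 0.0301 in DESeq2 and 0.0287 in limma voom (log2 1.55). That difference was 0.57 without OAT-1746 replicate 2 (edgeR adjusted p 0.367), and without OAT-1746 replicate 1 it was 2.28 (0.00411), the ends of the range over single omissions. COMB also lay below CTR in all 3 libraries, by a log2 of -0.50 ± 0.44, with an edgeR adjusted p of 0.823. Tep1 (r = 0.9933 over 9 libraries), Nop14 (0.9926) and Hnrnpa3 (0.992) resembled Mmp14 most.

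The promoter of Mmp14 is shown because its level moved across libraries with those of Mmp12, Mmp13 and Mmp19, with Pearson r of 0.756, 0.785 and 0.83 over the 9 libraries, a description only. Without OAT-1746 replicate 2 these r values were 0.389, 0.55 and 0.423 over 8 libraries. RefSeq promoter windows of GRCm38.p6 were held for 8 of the 10 members, in 9 entries, each of 300 bases around a RefSeq start of the gene, and Mmp2 and Mmp19 had no entry. For the AP-1 site the letters TGANTCA were searched on both strands. The GC box was searched as GGGCGG in the same way, and the TATA box was likewise searched as TATAAA. Capitals mark a match, and no match overlapped one of another kind. Among 32851 promoters of that length, 7.81% held the AP-1 letters, 35.7% the GC box and 13.6% the TATA box. The Mmp14 window (chr14:54431348-54431647, plus strand) held 2 matches to the GC box, at bases 232 to 237 and 238 to 243, and none to the other letters.
Mmp14: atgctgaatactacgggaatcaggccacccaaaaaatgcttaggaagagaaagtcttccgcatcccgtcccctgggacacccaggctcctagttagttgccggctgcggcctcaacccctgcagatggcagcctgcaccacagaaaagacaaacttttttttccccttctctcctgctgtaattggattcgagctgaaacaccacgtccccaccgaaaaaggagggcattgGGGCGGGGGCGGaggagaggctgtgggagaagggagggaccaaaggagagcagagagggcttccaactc
A match describes the letters of the window and is no measure of binding.

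Mmp2, the gelatinase that Mmp14 activates (ENSMUSG00000031740, chr8:92827291-92853420, plus strand), was counted at 56.6 and 49.5 CPM in CTR, 35.9 and 44.2 with OAT-1746, 30.3 and 42.5 with anti-PD-1, and 50.0, 27.8 and 22.3 in COMB. Both CTR libraries lay above those of OAT-1746 and anti-PD-1, and COMB replicate 1 alone of the COMB libraries reached the CTR range. Group means ran from 53.1 ± 5.07 CPM (SD, n = 2) in CTR through 40.04 ± 5.93 in OAT-1746 and 36.4 ± 8.61 in anti-PD-1 to 33.4 ± 14.7 (n = 3) in COMB, and only CTR and OAT-1746 were neighbours that did not overlap. The log2 difference from CTR was -0.41 ± 0.34 (SE) for OAT-1746, -0.54 ± 0.34 for anti-PD-1 and -0.67 ± 0.31 for COMB, with edgeR adjusted p of 0.422, 0.967 and 0.752 (Benjamini-Hochberg). These 3 comparisons share the CTR libraries. Without COMB replicate 1, Mmp2 was lower in COMB than in OAT-1746 by a log2 of -0.71 with an edgeR adjusted p of 0.0451, against -0.26 ± 0.31 and 0.567 with all libraries. Over single omissions that p ran from 0.0451 to 0.97. The most similar genes across libraries were Trim44 (r = 0.923), Slc38a1 (0.909) and Adam19 (0.900).

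Mmp12, the macrophage elastase (ENSMUSG00000049723, chr9:7344381-7369499, plus strand), stood at 25.3 and 9.18 CPM in CTR, 8.85 and 2.75 with OAT-1746, 13.8 and 40.4 with anti-PD-1, and 34.9, 57.7 and 53.4 in COMB. All 3 COMB libraries lay above both CTR and both OAT-1746 libraries, and only anti-PD-1 replicate 2 reached into the COMB range. The means ranked COMB (48.7 ± 12.1 CPM, SD, n = 3), anti-PD-1 (27.1 ± 18.8, n = 2), CTR (17.2 ± 11.4, n = 2) and OAT-1746 (5.80 ± 4.31, n = 2), and of these neighbours only CTR and OAT-1746 did not overlap. Mmp12 was higher in COMB than in OAT-1746 by a log2 of 3.07 ± 0.67 (SE), an 8.40-fold difference that passed in edgeR (adjusted p 0.0282) and in DESeq2 (6.41e-06). With single libraries left out, the log2 difference ran from 2.47 to 4.15 and the edgeR adjusted p from 0.00666 to 0.158. The call was lost without OAT-1746 replicate 2 (log2 2.47, p 0.158), without COMB replicate 2 (2.93, 0.106) and without COMB replicate 3 (2.99, 0.112). Without COMB replicate 1 the log2 was 3.23 (adjusted p 0.0210), and without OAT-1746 replicate 2 and COMB replicate 1 together it was 2.65 (0.0592). Against CTR, the COMB log2 was 1.498 ± 0.61 (edgeR adjusted p 0.752) and that of OAT-1746 was -1.57 ± 0.68 (0.146), the latter with a DESeq2 adjusted p of 0.0588. That OAT-1746 log2 was -0.95 (edgeR adjusted p 0.514) without OAT-1746 replicate 2, -0.65 (0.614) without CTR replicate 1 and -2.65 (0.0361) without OAT-1746 replicate 1. Over single omissions the COMB log2 against CTR ran from 0.94 to 2.43, with an edgeR adjusted p of 0.448 or more. The pattern most resembled those of Ddx50 (r = 0.970 over 9 libraries), Eif2b5 (0.965) and Panx1 (0.959).

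Mmp13 is a collagenase encoded on the same strand of the same chromosome (ENSMUSG00000050578, chr9:7272514-7283331). It was counted at 32.4 and 15.5 CPM in CTR, 11.8 and 2.80 with OAT-1746, 7.80 and 23.2 with anti-PD-1, and 12.8, 69.3 and 65.2 in COMB. COMB replicates 2 and 3 were the 2 highest libraries, while COMB replicate 1 lay below both CTR libraries. The means ranked COMB (49.1 ± 31.5 CPM, SD, n = 3), CTR (23.95 ± 11.998, n = 2), anti-PD-1 (15.5 ± 10.9, n = 2) and OAT-1746 (7.28 ± 6.33, n = 2), and every pair of neighbours overlapped. Relative to OAT-1746, COMB was higher by a log2 of 2.76 ± 0.87 (SE). This difference had an adjusted p of 0.0584 in edgeR, 0.0248 in DESeq2 and 0.0328 in edgeR with no filter on low counts. In edgeR it passed the threshold without COMB replicate 1 (log2 3.17, adjusted p 0.0219), without OAT-1746 replicate 1 (4.13, 0.0215), and without COMB replicate 1 and OAT-1746 replicate 2 together (2.52, 0.0472). The log2 was 2.07 without OAT-1746 replicate 2 alone, with an adjusted p of 0.26, the highest over single omissions. OAT-1746 lay below CTR by a log2 of -1.72 ± 0.89 in non-overlapping libraries, with an edgeR adjusted p of 0.207. Without OAT-1746 replicate 2 this was -1.01 (0.605), and without OAT-1746 replicate 1 it was -3.10 (0.0618). Genes closest to Mmp13 over the 9 libraries were Ugp2 (r = 0.988), Il12rb1 (0.988) and Gys1 (0.987).

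Mmp12 and Mmp13 correlated with each other at r = 0.874 over 9 libraries and at 0.761 over the 8 without OAT-1746 replicate 2, and their promoter windows are shown for that reason. RefSeq gave 2 windows for Mmp12 (chr9:7344147-7344446 and chr9:7347124-7347423) and 1 for Mmp13 (chr9:7272264-7272563), all on the plus strand, and the second Mmp12 window lay downstream of the first base of the gene given above. In capitals, in order, are the AP-1 letters and the TATA box, which lay at bases 207 to 213 and 255 to 260 of the second Mmp12 window and at bases 216 to 222 and 235 to 240 of the Mmp13 window.
Mmp12, first window: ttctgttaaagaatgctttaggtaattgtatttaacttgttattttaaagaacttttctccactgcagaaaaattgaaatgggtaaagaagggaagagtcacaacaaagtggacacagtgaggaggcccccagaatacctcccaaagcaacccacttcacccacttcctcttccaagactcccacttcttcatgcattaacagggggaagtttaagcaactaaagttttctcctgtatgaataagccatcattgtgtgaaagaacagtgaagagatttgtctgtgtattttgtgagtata
Mmp12, second window: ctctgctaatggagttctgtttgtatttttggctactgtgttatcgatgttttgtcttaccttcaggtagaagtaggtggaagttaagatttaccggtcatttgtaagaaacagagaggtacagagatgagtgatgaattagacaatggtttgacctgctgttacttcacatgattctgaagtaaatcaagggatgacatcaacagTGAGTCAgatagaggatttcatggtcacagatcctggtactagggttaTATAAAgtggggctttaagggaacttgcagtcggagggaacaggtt
Mmp13: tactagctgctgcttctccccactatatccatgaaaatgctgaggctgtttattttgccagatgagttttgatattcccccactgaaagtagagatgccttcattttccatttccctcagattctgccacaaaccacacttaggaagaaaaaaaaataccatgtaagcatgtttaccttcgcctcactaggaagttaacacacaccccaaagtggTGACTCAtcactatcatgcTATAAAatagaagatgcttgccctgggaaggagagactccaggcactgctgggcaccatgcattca
The first Mmp12 window held none of the letters searched. Of the 9 entries of members, 2 held the AP-1 letters, 2 the TATA box and 6 the GC box.

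Mmp19, a protease of basement membrane proteins (ENSMUSG00000025355, chr10:128790910-128800824, plus strand), measured 18.0 and 12.2 CPM in CTR, 6.23 and 2.12 with OAT-1746, 19.4 and 16.4 with anti-PD-1, and 12.1, 28.8 and 31.5 in COMB. The OAT-1746 libraries were the 2 lowest, and COMB replicates 2 and 3 the 2 highest. The means ranked COMB (24.1 ± 10.5 CPM, SD, n = 3), anti-PD-1 (17.9 ± 2.15, n = 2), CTR (15.1 ± 4.09, n = 2) and OAT-1746 (4.17 ± 2.91, n = 2), and only CTR and OAT-1746 were neighbours without overlap. COMB exceeded OAT-1746 by a log2 of 2.53 ± 0.52 (SE), a 5.78-fold difference past the threshold in edgeR (adjusted p 0.0259) and in DESeq2 (1.36e-05). With single libraries left out the log2 ran from 1.96 to 3.51 and the edgeR adjusted p from 0.00386 to 0.145. The libraries whose omission lost the call were OAT-1746 replicate 2 (log2 1.96, p 0.145), COMB replicate 2 (2.38, 0.101) and COMB replicate 3 (2.28, 0.112). Without COMB replicate 1 the log2 was 2.82 (edgeR adjusted p 0.0140), and without OAT-1746 replicate 2 and COMB replicate 1 together it was 2.28 (0.0122). OAT-1746 lay below CTR by a log2 of -1.85 ± 0.54, with an adjusted p of 0.0740 in edgeR and 0.00933 in DESeq2. Without OAT-1746 replicate 2 that log2 was -1.26 (edgeR adjusted p 0.319), and without OAT-1746 replicate 1 it was -2.83 (0.0104), the ends of the range over single omissions. Mmp19 overlaps Tmem198b on the opposite strand, which held at most 349 counts in a library, and counting was stranded. Ptger2 (r = 0.994 over 9 libraries), Cox7b (0.991) and Uap1l1 (0.991) had the most similar patterns.

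**Figure D2:**
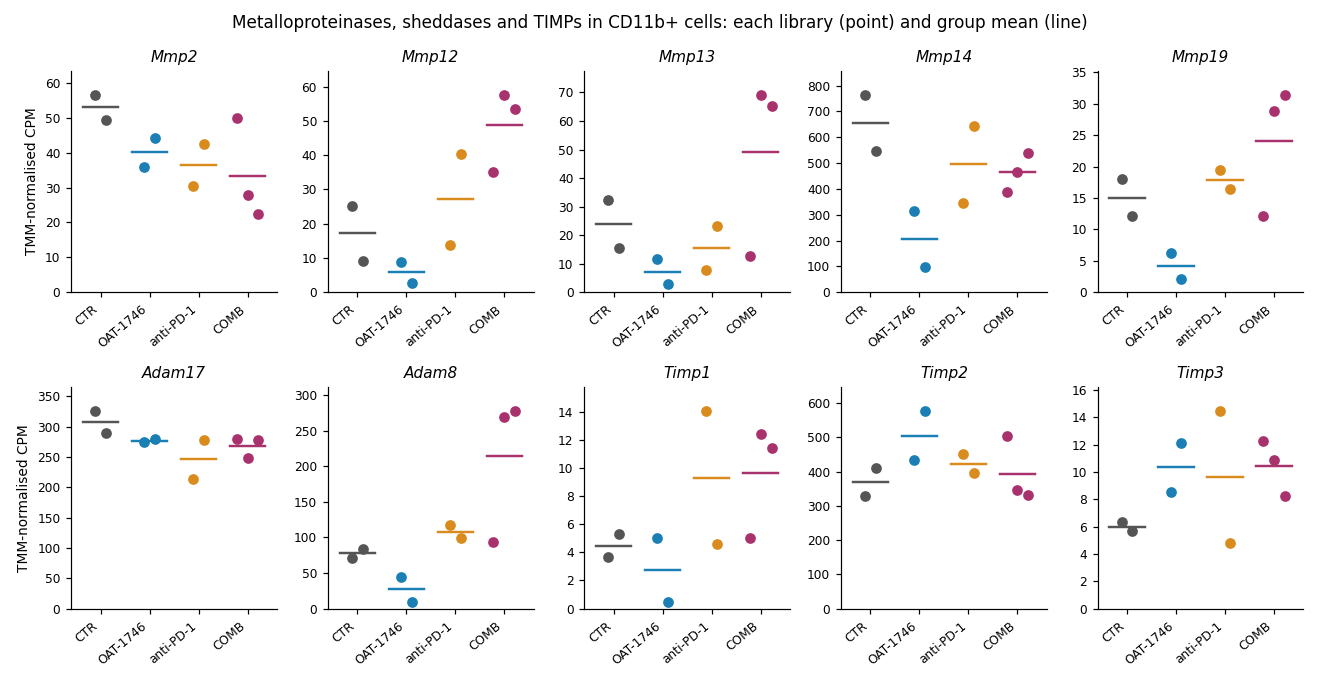
TMM-normalised CPM of each of the 10 members in every library (points, by group), with a line at each group mean. OAT-1746 replicate 2 is the lowest library for Mmp12, Mmp13, Mmp14, Mmp19, Adam8 and Timp1 and the highest for Timp2.

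Among the sheddases, Adam17 is the enzyme that releases tumour necrosis factor from the cell surface (ENSMUSG00000052593, chr12:21323509-21373632, minus strand). It stood at 326 and 289 CPM in CTR, 275 and 279 with OAT-1746, 214 and 278 with anti-PD-1, and 281, 248 and 277 in COMB. Both CTR libraries lay above all 7 treated libraries, while the treated groups overlapped one another. Means ranked CTR (308 ± 26.4 CPM, SD, n = 2), OAT-1746 (277 ± 3.03, n = 2), COMB (269 ± 17.7, n = 3) and anti-PD-1 (246 ± 45.3, n = 2). The log2 difference from the shared CTR libraries was -0.15 ± 0.17 (SE) for OAT-1746, -0.20 ± 0.16 for COMB and -0.32 ± 0.17 for anti-PD-1. None passed in edgeR, where the adjusted p was 0.562, 0.804 and 0.967, or in DESeq2. Adam17 overlaps Iah1 on the opposite strand, which held at most 532 counts in a library. Itga9 (r = 0.985), Fam3c (0.961) and Atm (0.948) varied most like Adam17 over the 9 libraries.

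Adam8, a sheddase of myeloid cells (ENSMUSG00000025473, chr7:139978932-139992562, minus strand), reached 71.5 and 84.35 CPM in CTR, 44.9 and 9.79 with OAT-1746, 117 and 99.1 with anti-PD-1, and 93.6, 270.03 and 278 in COMB. COMB replicates 2 and 3 held more than any other library, COMB replicate 1 lay just under anti-PD-1, and OAT-1746 lay below all others. The means ranked COMB (214 ± 104 CPM, SD, n = 3), anti-PD-1 (108 ± 12.6, n = 2), CTR (77.9 ± 9.10, n = 2) and OAT-1746 (27.4 ± 24.9, n = 2), and only COMB and anti-PD-1 overlapped among neighbours. The difference between COMB and OAT-1746 was a log2 of 2.97 ± 0.66 (SE), or 7.82-fold, and it passed in edgeR (adjusted p 0.0288) and in DESeq2 (0.00138). With single libraries left out the log2 ran from 2.26 to 4.45 and the edgeR adjusted p from 0.00225 to 0.13. The call was lost without OAT-1746 replicate 2 (log2 2.26, p 0.13), COMB replicate 2 (2.77, 0.107), COMB replicate 3 (2.71, 0.113) or CTR replicate 1 (2.98, 0.0501). Without COMB replicate 1 the log2 was 3.29 (adjusted p 0.0152), and without OAT-1746 replicate 2 and COMB replicate 1 together it was 2.61 (0.00801).

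Against CTR, Adam8 differed by a log2 of -1.51 ± 0.65 (SE) with OAT-1746, 0.47 ± 0.64 with anti-PD-1 and 1.46 ± 0.61 in COMB, with edgeR adjusted p of 0.148, 0.974 and 0.752. In each of these comparisons the libraries did not overlap. The OAT-1746 log2 was -0.78 (edgeR adjusted p 0.481) without OAT-1746 replicate 2 and -3.00 (0.00885) without OAT-1746 replicate 1, the ends of its range over single omissions. Without OAT-1746 replicate 2 and COMB replicate 1 together, Adam8 was higher in COMB than in CTR by 1.83 (edgeR adjusted p 0.00751) and higher in COMB than in anti-PD-1 by 1.36 (0.0163). With all libraries the log2 between COMB and anti-PD-1 was 0.99 ± 0.60 (0.765). In the 9 fits that left out a single library no difference of Adam8 between COMB and CTR passed, with edgeR adjusted p of 0.384 or more, and none between COMB and anti-PD-1 did, with 0.438 or more. Pgk1 (r = 0.989 over 9 libraries), Psmb7 (0.989) and Sec11a (0.988) were most like Adam8. Among members the closest was Mmp19, with r = 0.968 over 9 libraries and 0.907 over the 8 without OAT-1746 replicate 2, and the Adam8 promoter is shown beside those of the proteases for that reason. Its RefSeq window (chr7:139992513-139992812, minus strand) held the GC box on the opposite strand, in capitals at bases 216 to 221.
Adam8: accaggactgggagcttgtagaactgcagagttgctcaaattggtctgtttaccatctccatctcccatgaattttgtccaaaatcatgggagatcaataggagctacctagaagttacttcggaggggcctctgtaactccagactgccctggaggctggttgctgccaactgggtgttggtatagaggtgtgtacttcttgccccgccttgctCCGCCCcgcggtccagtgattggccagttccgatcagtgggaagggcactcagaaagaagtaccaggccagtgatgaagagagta

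Timp1, an inhibitor of most secreted matrix metalloproteinases (ENSMUSG00000001131, chrX:20870166-20874735, plus strand), stood at 3.66 and 5.29 CPM in CTR, 5.01 and 0.458 with OAT-1746, 14.1 and 4.56 with anti-PD-1, and 5.04, 12.4 and 11.4 in COMB. Anti-PD-1 replicate 1 and COMB replicates 2 and 3 were the 3 high libraries, OAT-1746 replicate 2 was the lowest, and the other 5 lay close together. Means ranked COMB (9.62 ± 3.995 CPM, SD, n = 3), anti-PD-1 (9.32 ± 6.73, n = 2), CTR (4.48 ± 1.15, n = 2) and OAT-1746 (2.73 ± 3.22, n = 2), and all neighbours overlapped. COMB lay above OAT-1746 by a log2 of 1.82 ± 0.81 (SE), with an edgeR adjusted p of 0.137. Its lowest COMB library (5.04 CPM) and highest OAT-1746 library (5.01 CPM) differed by less than the worth of 1 count. OAT-1746 differed from CTR by a log2 of -0.72 ± 0.87 (edgeR adjusted p 0.583), which was 0.17 (0.917) without OAT-1746 replicate 2 and -3.27 (0.0320) without OAT-1746 replicate 1. Without OAT-1746 replicate 1, COMB also exceeded OAT-1746 by 4.38 (edgeR adjusted p 0.00858), and without OAT-1746 replicate 2 by 0.95 (0.435), the ends of the range over single omissions. The gene lies inside Syn1 on the opposite strand, which held at most 60 counts in a library, and counting was stranded. Glipr2 (r = 0.984 over 9 libraries), S100a13 (0.982) and Ddx28 (0.978) followed Timp1 most closely.

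Timp2, which inhibits matrix metalloproteinases and takes part in the activation of Mmp2 (ENSMUSG00000017466, chr11:118301069-118355740, minus strand), was counted at 329 and 411 CPM in CTR, 433 and 578 with OAT-1746, 451 and 395 with anti-PD-1, and 504, 346 and 331 in COMB. OAT-1746 replicate 2 and COMB replicate 1 were the 2 highest libraries. Means ranked OAT-1746 (505 ± 102 CPM, SD, n = 2), anti-PD-1 (423 ± 39.5, n = 2), COMB (393 ± 96.0, n = 3) and CTR (369.8 ± 58.3, n = 2), and all neighbours overlapped. OAT-1746 lay above CTR without overlap, by a log2 of 0.45 ± 0.25 (SE) and with an edgeR adjusted p of 0.235. Without OAT-1746 replicate 2 this log2 was 0.24 (0.696), the highest p over single omissions, and the lowest was 0.102. COMB differed from OAT-1746 by -0.36 ± 0.23 (0.273), and without COMB replicate 1 by -0.61 (edgeR adjusted p 0.0593). Timp2 varied inversely to Mmp13, with r = -0.923 over 9 libraries and -0.863 over the 8 without OAT-1746 replicate 2. Ctsd (r = 0.987 over 9 libraries), Rab11fip5 (0.980) and Cds2 (0.971) were most like it.

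Timp3, the matrix-bound inhibitor that also blocks Adam17 (ENSMUSG00000020044, chr10:86300372-86349506, plus strand), ran at 6.31 and 5.71 CPM in CTR, 8.56 and 12.1 with OAT-1746, 14.5 and 4.79 with anti-PD-1, and 12.3, 10.9 and 8.22 in COMB. The OAT-1746 and COMB libraries all lay above both CTR libraries, and the anti-PD-1 libraries were the highest and the lowest of the 9. Means ranked COMB (10.5 ± 2.08 CPM, SD, n = 3), OAT-1746 (10.3 ± 2.53, n = 2), anti-PD-1 (9.64 ± 6.86, n = 2) and CTR (6.01 ± 0.425, n = 2), and every neighbour overlapped the next. The log2 difference from CTR was 0.78 ± 0.45 (SE) for OAT-1746, 0.67 ± 0.45 for anti-PD-1 and 0.80 ± 0.42 for COMB, with edgeR adjusted p of 0.246, 0.967 and 0.767. The gene lies within Syn3 on the opposite strand, which held at most 2 counts in a library. Ly6c1 (r = 0.959 over 9 libraries), Actr6 (0.942) and Dcaf12 (0.934) were closest in pattern. Over the 8 libraries without OAT-1746 replicate 2, the r of the genes named as most like a member ran from 0.907 (Slc38a1 with Mmp2) to 0.986 (Tep1 with Mmp14, and Itga9 with Adam17).

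The question of what the inhibitor does alone is addressed by OAT-1746 against CTR. Of the 10 members, 0 passed in edgeR at an adjusted p under 0.05, as did 0% of all genes tested. At an unadjusted p under 0.05 in edgeR, 4 members were lower (Mmp12, Mmp14, Mmp19 and Adam8) beside 16.2% of all genes, and 0 were higher, beside 16.1%. DESeq2 called 2 members lower, Mmp14 and Mmp19, beside 7.37% of genes, and 0 higher, beside 8.36%. The libraries did not overlap for 7 members that were lower, beside 32.1% of genes, and for 2 that were higher (Timp2 and Timp3), beside 30.8%. The 5 matrix metalloproteinases among the members and both sheddases were those lower without overlap. The full list of matrix metalloproteinases, of which 11 were tested, went both ways. In it 5 genes were lower and 4 higher without overlap. At an unadjusted p under 0.05 in edgeR 3 were lower and 3 higher, and DESeq2 called 2 lower and 2 higher. The median log2 of the members was -1.11, against 0.0080 over all genes. Without OAT-1746 replicate 1, 5 members were called lower in edgeR (Mmp12, Mmp14, Mmp19, Adam8 and Timp1), beside 17% of the genes tested in that fit, and 0 higher, beside 11.2%. With any other single library left out 0 members were called in edgeR.

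Anti-PD-1 against CTR addresses the antibody alone. In edgeR 0 members passed, as did 0% of all genes, 0 members reached an unadjusted p under 0.05 beside 5.12% of genes, and DESeq2 called 0 members beside 0.112%. Libraries did not overlap for 1 higher member, Adam8, beside 20.6% of genes, and for 2 lower members, Mmp2 and Adam17, beside 16.9%. The median log2 of the members was 0.22, against 0.022 over all genes.

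COMB against CTR addresses the 2 agents together and shares the CTR libraries with both comparisons above. Again 0 members passed in edgeR, beside 0% of genes, and DESeq2 called 0 beside 0.279%. Mmp12 and Adam8, 2 members, were higher at an unadjusted p under 0.05 in edgeR, beside 3.21% of genes higher, and 0 members were lower, beside 3.37%. Libraries did not overlap for 3 higher members (Mmp12, Adam8 and Timp3), beside 12.1% of genes, and for 2 lower ones (Mmp14 and Adam17), beside 15.8%. The members' median log2 was 0.74, against -0.0048 over all genes.

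COMB against anti-PD-1 addresses the inhibitor in mice given the antibody. No member's libraries were free of overlap (0 of 10, beside 26.4% of genes), and 0 passed in edgeR beside 0% of genes. At an unadjusted p under 0.05 in edgeR there were 0 members beside 7.23% of genes, and in DESeq2 0 beside 0.375%. The members' median log2 was 0.13, against -0.0093 over all genes.

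COMB against OAT-1746 addresses the antibody in mice given the inhibitor and was the comparison in which members passed the test. In edgeR 3 of 10 members were higher at an adjusted p under 0.05 (Mmp12, Mmp19 and Adam8), beside 6.84% of all genes higher, and 0 were lower, beside 8.94%. For Mmp12, Mmp19 and Adam8 the call was lost when only the groups compared were fitted (edgeR adjusted p 0.0674, 0.0820 and 0.0848). It was also lost with the replicate number as a block (0.217 for each). The log2 values were 3.07, 2.53 and 2.96 in the first of these fits and 3.05, 2.38 and 2.80 in the second. At an unadjusted p under 0.05 in edgeR, 5 were higher, beside 18.3% of genes, and 0 were lower, beside 18.8%. DESeq2 called 5 higher, with Mmp13 and Mmp14 added, beside 13.2% of genes, and 0 lower, beside 11.3%. Libraries did not overlap for 6 higher members, these 5 and, by less than 1 count, Timp1, beside 25% of genes, and for 0 lower ones, beside 28.9%. The median log2 of the members was 1.496, against 0.0029 over all genes. Without COMB replicate 1 the members called in edgeR went both ways. Mmp12, Mmp13, Mmp19 and Adam8 were higher, beside 10.4% of the genes tested in that fit, and Mmp2 was lower, beside 13%. The number of members called in edgeR was 0 without OAT-1746 replicate 2, 0 without COMB replicate 2, 0 without COMB replicate 3, 5 without COMB replicate 1 and 6 without OAT-1746 replicate 1. Over all genes these omissions left 27, 14, 5, 2923 and 4033 genes called, against 1979 with every library. Leaving out a CTR library gave 734 or 808 genes, and an anti-PD-1 library 861 or 927.

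**Figure D3:**
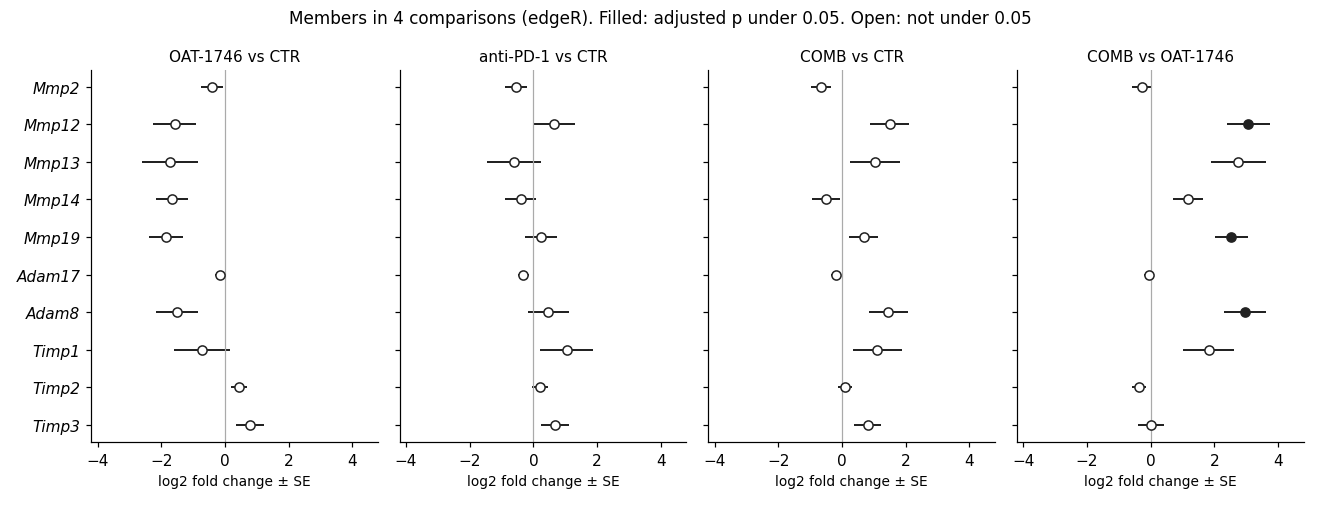
Log2 fold change of each member with its standard error in 4 comparisons between groups, with filled points where the edgeR adjusted p was under 0.05. Only Mmp12, Mmp19 and Adam8 are filled, in COMB against OAT-1746.

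The interaction asks whether the effect of the inhibitor differed with the antibody, as the COMB minus anti-PD-1 difference less the OAT-1746 minus CTR difference, and so it draws on all the libraries above. In edgeR 0 members passed, beside 0.359% of genes, while 5 (Mmp12, Mmp13, Mmp14, Mmp19 and Adam8) were positive at an unadjusted p under 0.05, beside 11.8% of genes, and 0 were negative, beside 14.4%. DESeq2 called 2 members, Mmp12 at 2.44 (adjusted p 0.0417) and Mmp19 at 2.30 (0.0235), beside 3.61% of genes positive, and 0 negative, beside 4.79%. The edgeR log2 values were 2.41 ± 0.90 (SE) for Mmp12, 3.37 ± 1.20 for Mmp13, 1.58 ± 0.67 for Mmp14, 2.28 ± 0.71 for Mmp19 and 2.50 ± 0.89 for Adam8. Their edgeR adjusted p values were 0.144, 0.135, 0.179, 0.115 and 0.135 in that order. With single libraries left out the log2 ran from 1.53 to 3.49 for Mmp12, 2.70 to 4.75 for Mmp13, 0.98 to 2.68 for Mmp14, 1.71 to 3.26 for Mmp19 and 1.79 to 3.99 for Adam8. The inhibitors ranged from -0.65 for Timp3 to 0.77 for Timp1, and the median over members was 1.18, against -0.02 over all genes. Without OAT-1746 replicate 1 the same 5 members were called in edgeR, all positive, beside 12.8% of genes positive, and 0 were negative, beside 8.52%. With any other single library left out 0 were called in edgeR. Without OAT-1746 replicate 2 and COMB replicate 1 together, 2 were called, Mmp19 at 2.03 (edgeR adjusted p 0.0368) and Adam8 at 2.14 (0.0127), beside 2.52% of genes positive and 3.03% negative.

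Marker levels were set beside these results. Between OAT-1746 and CTR, 10 of 10 microglia markers were higher with no overlap, beside 30.8% of all genes, with a median log2 of 0.93 (0 called in edgeR, 10 at an unadjusted p under 0.05, 8 in DESeq2). In the same comparison 10 of 10 monocyte and macrophage markers were lower, 4 of them with no overlap, beside 32.1% of genes, with a median of -0.69. Between COMB and OAT-1746, 10 of 10 microglia markers were lower with no overlap, beside 28.9% of genes (median -0.71, 2 called in edgeR, beside 8.94%, 9 at an unadjusted p under 0.05 and 5 in DESeq2) and 8 of 10 monocyte and macrophage markers were higher (median 0.60, 1 called, beside 6.84%, and 1 with no overlap, beside 25%). Of 7 neuron markers, 3 had a mean under 1 CPM. In OAT-1746 5 of the 7 were higher than in CTR without overlap, beside 30.8% of genes (median 1.20, 0 called in edgeR, 4 at an unadjusted p under 0.05, 2 in DESeq2). In COMB 5 were called lower than in OAT-1746 in edgeR, beside 8.94% of genes (median -1.83). The neuron sum was 7.39 and 12.8 CPM in CTR, 17.9 and 21.9 with OAT-1746, 8.57 and 9.30 with anti-PD-1, and 9.05, 5.74 and 7.44 in COMB. For neutrophils the sum was 551 and 743 CPM with OAT-1746 against 329 and 514 in CTR. Most of that sum came from Csf3r, with a mean of 303 CPM over the libraries, and the list also holds the matrix metalloproteinases Mmp8 and Mmp9. Of 11 neutrophil markers 9 were higher (median 0.76, 5 at an unadjusted p under 0.05, 0 called in edgeR, 1 in DESeq2). The astrocyte sum was 117 and 156 CPM in CTR, 201 and 249 with OAT-1746, 137 and 133 with anti-PD-1, and 226, 208 and 199 in COMB. OAT-1746 replicate 2, the library with 623 CPM of monocyte and macrophage markers, was also the lowest for 6 of the members. In OAT-1746 replicate 1 the monocyte and macrophage sum was 3387 CPM, between those of CTR (3053 and 3572) and above those of COMB (2553, 2888 and 3094). In that library Mmp12, Mmp13, Mmp14, Mmp19 and Adam8 lay below every CTR and COMB library, and the other members did not. Between COMB and CTR the median log2 of the monocyte and macrophage markers was -0.36. The NK cell sum was 268 and 163 CPM in anti-PD-1 and 72.2, 134 and 143 in COMB, against 65.1 and 73.8 in CTR and 87.5 and 21.1 in OAT-1746. No NK, microglia, or monocyte and macrophage marker was at 0 in every library. The part of these cells in the members' levels was not tested.

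**Figure D4:**
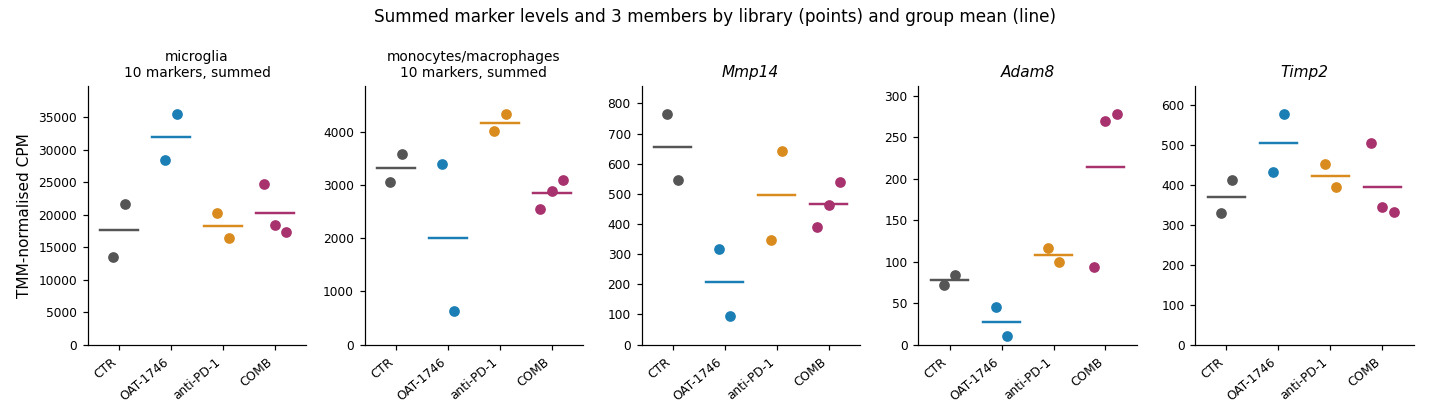
TMM-normalised CPM of the summed microglia and monocyte or macrophage markers and of Mmp14, Adam8 and Timp2 in each library (points, by group), with a line at each group mean. OAT-1746 replicate 2 is the lowest library for the monocyte and macrophage sum, Mmp14 and Adam8 and the highest for the microglia sum and Timp2.

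The wider protease system was summarised from lists of relatives, partners and targets, beside 6.84% of all genes called higher and 8.94% called lower in COMB than in OAT-1746 in edgeR. Of 23 listed matrix metalloproteinases, 11 were tested, and in COMB against OAT-1746 2 were called higher in edgeR and 0 lower (2 lower at an unadjusted p under 0.05, 0 in DESeq2), with a median log2 of -0.02. Of 10 ADAM genes 8 were tested, with 1 higher, 0 lower (0 also at an unadjusted p under 0.05 and in DESeq2) and a median of -0.06. Those 3 calls were the members already named, so no other gene of these families passed in edgeR. Adam10, the sheddase with the highest level per kb of exon of the ADAM list at 75.2 CPM, differed between these groups by a log2 of -0.15 ± 0.15 (SE). By the longest transcript, Adam15 stood at 90.9, 72.9 and 86.3 CPM per kb with OAT-1746, with anti-PD-1 and in COMB. Adam10 lay below it there, at 90.1, 66.3 and 81.3, and above it in CTR (83.8 against 81.3). Of 19 ADAMTS genes 6 were tested, with 2 lower and 0 higher (0 also at an unadjusted p under 0.05 and in DESeq2). Adamts1, an aggrecan-cutting protease, lay between 52.4 and 73.6 CPM in OAT-1746 and between 8.45 and 20.1 in COMB, a log2 of -2.13 ± 0.34 (edgeR adjusted p 0.0160). Adamts6 was lower by a log2 of -1.79 ± 0.46 (edgeR adjusted p 0.0374), at no more than 2.98 CPM in any library. All 6 listed inhibitors were tested and 0 were called in either direction in edgeR or DESeq2, with 0 at an unadjusted p under 0.05 and a median of 0.15. Reck, a membrane-anchored inhibitor in that list, had a level per length of 0.542 CPM per kb and a log2 of 0.84 ± 0.40 between OAT-1746 and CTR (edgeR adjusted p 0.177).

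Of 11 activators and receptors of these proteases 10 were tested. Plgrkt, a plasminogen receptor, was higher in COMB than in OAT-1746 by a log2 of 1.35 ± 0.27 (SE, edgeR adjusted p 0.0250). The highest level per length in that list was that of Bsg, an inducer of matrix metalloproteinases, at 226 CPM per kb. Of 9 regulators of Adam17 and Adam10, 8 were tested, with Tspan17 higher (1.64 ± 0.35, edgeR adjusted p 0.0274) and Rhbdf1 lower (-0.91 ± 0.24, 0.0394), while Tspan14 had the highest level per length at 129 CPM per kb.

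Substrates shed by ADAM proteases were tested for 15 of 16 genes, of which 4 were lower, beside 8.94% of all genes, and 0 higher, beside 6.84%, in COMB than in OAT-1746 in edgeR (0 higher also at an unadjusted p under 0.05 and in DESeq2). Tnf, the substrate for which Adam17 is named, stood at 123 and 151 CPM in CTR, 176 and 167 with OAT-1746, 95.0 and 149.96 with anti-PD-1, and 46.5, 43.2 and 36.9 in COMB. All 3 COMB libraries lay below the other 6, whereas Adam17 itself overlapped between COMB and OAT-1746. Tnf was lower in COMB than in OAT-1746 by a log2 of -2.02 ± 0.21 (SE, edgeR adjusted p 0.00528). Against CTR its COMB log2 was -1.70 ± 0.20, which missed the threshold in edgeR (adjusted p 0.184) and passed it in DESeq2 (1.21e-08). The other 3 called substrates were Hbegf (-1.89 ± 0.30, edgeR adjusted p 0.0160), Mertk (-0.84 ± 0.20, 0.0336) and Lag3 (-1.03 ± 0.27, 0.0392). Without OAT-1746 replicate 2 the log2 was -1.39 for Hbegf, -0.62 for Mertk and -0.49 for Lag3. Csf1r had the highest level per length of the list, 1411 CPM per kb. Of 17 tested of 19 matrix proteins, 3 were higher in COMB than in OAT-1746, beside 6.84% of all genes, and 0 lower, beside 8.94% (1 lower at an unadjusted p under 0.05, 0 in DESeq2). They were Bcan (1.46 ± 0.35, edgeR adjusted p 0.0337), Col4a2 (0.88 ± 0.19, 0.0274) and Col3a1 (2.25 ± 0.58, 0.0380), the last at no more than 1.35 CPM. Tgfbi, with the highest level per length at 1065 CPM per kb, was lowest in OAT-1746 replicate 2 at 366 CPM. Of the 13 genes of these lists outside the members that were called, 1 (Tnf) was still called without OAT-1746 replicate 2, 1 (Tnf) without COMB replicate 2 and 0 without COMB replicate 3, while 7 were without either anti-PD-1 library, 8 without either CTR library, 12 without OAT-1746 replicate 1 and 13 without COMB replicate 1. With the replicate number as a block 0 of the 13 were called, and 1 (Tnf) was when only the groups compared were fitted.

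Outside the members, 71 different genes of these lists were tested. Between OAT-1746 and CTR 0 were called in edgeR, with 19 higher and 12 lower at an unadjusted p under 0.05 (26.8% and 16.9%, against 16.1% and 16.2% of all genes) and 14 higher and 7 lower in DESeq2 (19.7% and 9.86%, against 8.36% and 7.37%). Between anti-PD-1 and CTR 0 were called in edgeR, with 3 higher and 0 lower at an unadjusted p under 0.05 (4.23% and 0%, against 3.18% and 1.94%) and 0 in DESeq2 (against 0.112% in either direction). Between COMB and CTR 0 were called in edgeR, with 2 higher and 3 lower at an unadjusted p under 0.05 (2.82% and 4.23%, against 3.21% and 3.37%) and 1 in each direction in DESeq2 (1.41% each, against 0.152% and 0.128%). Between COMB and anti-PD-1 0 were called in edgeR, with 1 higher and 9 lower at an unadjusted p under 0.05 (1.41% and 12.7%, against 1.98% and 5.26%) and 1 higher and 3 lower in DESeq2 (1.41% and 4.23%, against 0.0558% and 0.319%). Between COMB and OAT-1746 5 were called higher and 8 lower in edgeR (7.04% and 11.3%, against 6.84% and 8.94% of all genes), with 9 higher and 15 lower at an unadjusted p under 0.05 (12.7% and 21.1%, against 18.3% and 18.8%) and 8 higher and 9 lower in DESeq2 (11.3% and 12.7%, against 13.2% and 11.3%). In the interaction 2 were called in edgeR, Adamts1 and Tnf, both lower (2.82%, against 0.351%), with 6 higher and 17 lower at an unadjusted p under 0.05 (8.45% and 23.9%, against 11.8% and 14.4%) and 1 higher and 7 lower in DESeq2 (1.41% and 9.86%, against 3.61% and 4.79%). Median log2 values between OAT-1746 and CTR were -0.32 for the matrix metalloproteinases, -0.36 for the ADAM genes, 0.84 for the ADAMTS genes and 0.24 for the inhibitors, against 0.0080 over all genes.

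**Figure D5:**
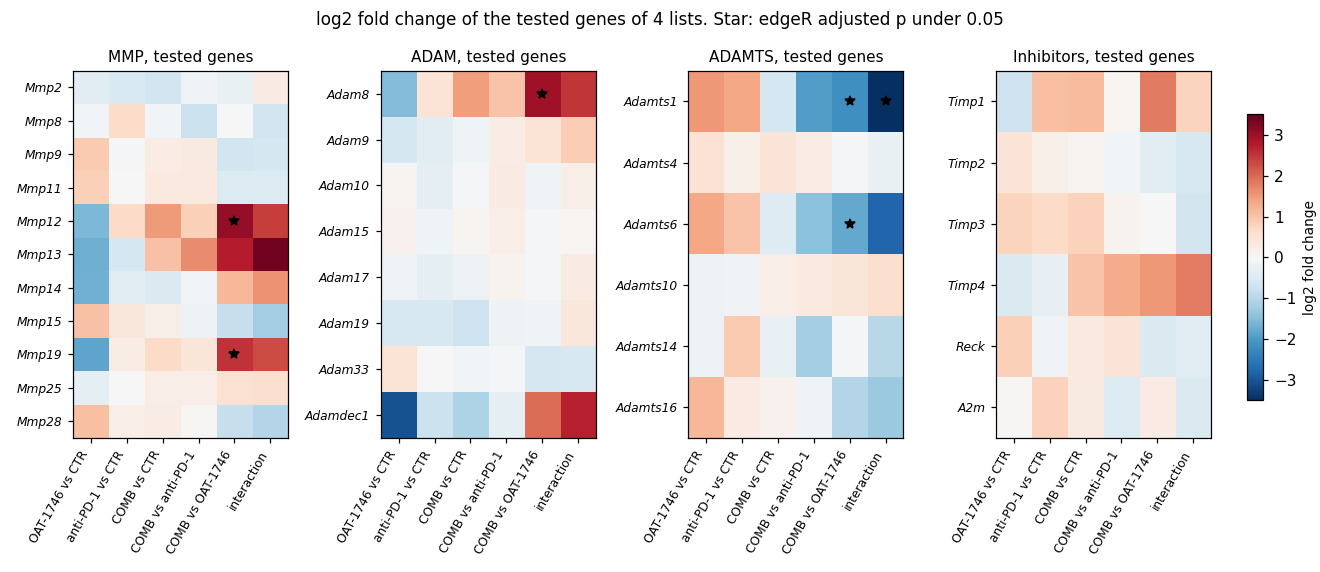
Log2 fold change (colour, red higher and blue lower) of the tested matrix metalloproteinases, ADAM genes, ADAMTS genes and inhibitors (1 gene per line) in the 5 comparisons and the interaction, with a star at an edgeR adjusted p under 0.05. Stars stand at Mmp12, Mmp19, Adam8, Adamts1 and Adamts6 in COMB against OAT-1746 and at Adamts1 in the interaction.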

How the data were processed

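Levels were measured by RNA-seq in CD11b+ cells of 9 libraries. Unnormalised counts per gene were deposited, which the authors made by trimming with Trimmomatic, aligning to mm10 with STAR, marking duplicates with Picard and counting in stranded mode with HTSeq. Genes were matched to GENCODE M21, which held 53620 of the 53801 genes, and the 181 without an entry and the genes outside the 21890 protein-coding ones were left out.

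Counts were fitted in R 4.3.3 with edgeR 4.0.16 (TMM, filterByExpr with a minimum count of 10, quasi-likelihood test, 1 mean per group, all 9 libraries), and p-values were adjusted over the 12538 genes tested by the Benjamini-Hochberg method. A gene was called at an adjusted p under 0.05. The fit had a common coefficient of variation of 0.214 between replicates and 4.15 prior degrees of freedom. Library totals set 1 count at 0.0564 to 0.0742 CPM. DESeq2 1.42.0 and limma 3.58.1 voom with quality weights were the other tools, and the steps were tested on simulated data. Shares of all genes called in DESeq2 are over the 12538 genes tested. DESeq2 gave an adjusted p to between 10836 and 12294 of these, depending on the comparison, and to every member.

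The alternatives were DESeq2, DESeq2 size factors in edgeR, library size only, no filter on low counts, at least 10 counts in every library, robust estimation, all genes, limma voom, only the groups compared, the replicate number as a block, the longest transcript as length, and each library left out. Leaving out OAT-1746 replicate 2 and COMB replicate 1 together was added after the data were seen. Where a group was left with 1 library, that library was assumed to vary like the other groups.

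The members and all gene lists were chosen with earlier results of these data known. The genes named were the members, each list's genes called in edgeR in any comparison or else the 3 with the smallest p in OAT-1746 against CTR, the gene of each list with the highest mean level per length, and for each member the 3 tested genes with a mean of at least 5 CPM and the highest Pearson correlation of log2 CPM (prior count 2). One gene called in COMB against OAT-1746 by these rules is not reported here. Itgam was added as the gene of the sorting gate. Plots used matplotlib 3.10.9 with Python 3.11.15.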

Additional observations from a re-analysis of the deposited data

Results flagged for a closer look

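In 2 genes of the lists around the members, the effect of OAT-1746 differed with the antibody by the test of the interaction itself. For Adamts1 the interaction was a log2 of -3.48 ± 0.51 (SE), with an adjusted p of 0.0400 in edgeR and 1.18e-07 in DESeq2. Its level was 21.7 and 22.0 CPM in CTR, 52.4 and 73.6 with OAT-1746, 69.4 and 41.9 with anti-PD-1, and 20.1, 8.45 and 14.6 in COMB. For each agent alone the libraries lay above both CTR libraries, and all 3 COMB libraries lay below them. Over single libraries left out, the log2 ran from -3.80 to -3.07 and the edgeR adjusted p from 0.00447 to 0.218. The call was lost in 7 of these 9 fits, and kept without OAT-1746 replicate 1 and without COMB replicate 1. It was also lost with library size only (adjusted p 0.0504), with all genes (0.05003) and with the replicate number as a block (0.298).

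For Tnf the interaction was a log2 of -1.86 ± 0.31 (SE), with an adjusted p of 0.0495 in edgeR and 3.67e-05 in DESeq2. Its COMB libraries, at 46.5, 43.2 and 36.9 CPM, lay below the other 6. Over single libraries left out the log2 ran from -2.15 to -1.49 and the edgeR adjusted p from 0.0101 to 0.228. The call was lost in 6 of these 9 fits, and kept without OAT-1746 replicate 1, anti-PD-1 replicate 1 or COMB replicate 1. It was also lost with DESeq2 size factors (adjusted p 0.0540), library size only (0.0501), all genes (0.0647) and the replicate number as a block (0.382).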

How the results depend on the processing

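Each result was computed again under each alternative. Of the values of single genes, 1293 kept their direction and their side of the threshold (levels per length: moved by less than the spread), 130 were no longer past the threshold, 28 newly passed it, 35 changed direction and 4 levels per length moved by more than the spread. Requiring at least 10 counts in every library gave no value for Timp1, Adamts6 and Col3a1, and fits of only the groups compared gave none for the interaction. The cause of the changes given here was not tested.

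DESeq2 called 1972 genes in OAT-1746 against CTR (0 in edgeR), 14 in anti-PD-1 against CTR, 35 in COMB against CTR, 47 in COMB against anti-PD-1, 3062 in COMB against OAT-1746 (1979 in edgeR) and 1053 in the interaction (45 in edgeR), with 2, 0, 0, 0, 5 and 2 members. Scaling by library size only gave 24 genes in the interaction and a COMB against OAT-1746 log2 of -0.032 for Timp3. All genes in place of protein-coding ones gave 18 in the interaction. With no filter on low counts there were 587 genes in OAT-1746 against CTR, 2 in COMB against CTR, 2 in COMB against anti-PD-1 and 146 in the interaction. Voom gave 2 genes in COMB against CTR, 35 in COMB against anti-PD-1 and 428 in the interaction, and reversed Timp2 in COMB against CTR (-0.091), Mmp14 in COMB against anti-PD-1 (0.11), Timp3 in COMB against OAT-1746 (-0.18) and Mmp2 in the interaction (-0.13). Fits of only the groups compared, which hold fewer libraries, called 5 genes in COMB against CTR, 2 in COMB against anti-PD-1 and 30 in COMB against OAT-1746, with 0 members in the last.

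With the replicate number as a block, 2 genes and 0 members were called in COMB against OAT-1746 and 0 genes in the interaction, and the log2 of COMB against anti-PD-1 was 0.080 for Mmp2 and 0.0061 for Timp2. The samples share only a number, with no label of a shared animal.

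The fit without both OAT-1746 replicate 2 and COMB replicate 1, which was chosen after seeing the data, called 46 genes and 1 member in COMB against CTR, 136 and 1 in COMB against anti-PD-1, 1284 in COMB against OAT-1746, and 710 and 2 in the interaction. It gave a log2 of 0.17 for Timp1 in OAT-1746 against CTR, -0.11 for Timp2 in COMB against CTR and 0.044 for Mmp14 in COMB against anti-PD-1.

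Leaving out single libraries gave 0 to 3617 genes and 0 to 5 members in OAT-1746 against CTR, 0 to 52 genes in COMB against anti-PD-1, 5 to 4033 genes and 0 to 6 members in COMB against OAT-1746, and 0 to 2734 genes and 0 to 5 members in the interaction. Member values whose direction changed ran as follows. In OAT-1746 against CTR, Timp1 ran from -3.27 to 0.17. In anti-PD-1 against CTR, Mmp12 ran from -0.33 to 1.56, Mmp13 from -1.62 to 0.0010, Mmp19 from -0.0098 to 0.56 and Timp3 from -0.32 to 1.26. In COMB against CTR, Timp2 ran from -0.15 to 0.25. In COMB against anti-PD-1, Mmp2 ran from -0.53 to 0.15, Mmp14 from -0.47 to 0.43, Adam17 from -0.053 to 0.33, Timp1 from -0.54 to 1.07, Timp2 from -0.32 to 0.055 and Timp3 from -0.46 to 1.124. In COMB against OAT-1746, Adam17 ran from -0.11 to 0.0097 and Timp3 from -0.21 to 0.31. In the interaction, Mmp2 ran from -0.14 to 0.55, Timp1 from -0.10 to 3.34 and Timp3 from -1.24 to 0.35.

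Counts were low for Timp1, with 8 in OAT-1746 replicate 2, and outside the members for Col3a1 and Adamts6, with as few as 3 and 5. Most groups held 2 libraries, so each test borrows its spread from the other groups and genes, and the collection day and the animals behind each library could not be settled from the labels.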
